A study of Mus musculus with 6 samples.

Results

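The genes described here encode the enzymes and transporters of glycolysis and glycogen use and the sensors and responders of the hypoxia pathway, 41 genes chosen by symbol, of the 27179 genes in the count table. All 41 were found in the table by symbol, and 40 of them passed the filter on low counts that left 13769 genes for testing. Poly(A) RNA was sequenced from primary satellite cells of muscle, its resident stem cells, taken from the hindlimbs of C57BL/6 mice of WT genotype. The labels call the cells ageing and give no age. All cells were kept in growth medium with fetal bovine serum and bFGF, and were treated for 72 h (day 3, which the labels give as the batch of all samples) with recombinant human MG53 (rhMG53, written hMG53 in the sample labels) or, as vehicle control, with bovine serum albumin (BSA). Each group held 3 libraries, and the comparison asks which genes respond to the added protein.

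Glycolysis converts glucose to pyruvate in the cytosol, and lactate dehydrogenase turns pyruvate into lactate when it is not passed to the mitochondria. Skeletal muscle stores glucose as glycogen and releases it through glycogen phosphorylase, and it uses muscle-type isoforms of several glycolytic enzymes that take over from widely expressed isoforms as myoblasts differentiate. When oxygen is low, the prolyl hydroxylases of the EGLN family no longer mark the transcription factor subunit HIF1A for destruction. HIF1A then binds short sequences near glucose transporter, glycolytic and other target genes and activates them. HIF1A is controlled mainly through the stability of its protein, which mRNA counts do not measure.

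No gene of the set passed the test for a difference between rhMG53 and BSA, and most were held within narrow limits. Glycolytic transcripts were abundant in both groups, led by the aldolase gene Aldoa at 5182 ± 259.9 CPM (BSA) against 5093 ± 135 CPM (rhMG53) (CPM, counts scaled to a common library size with TMM factors; mean ± SD, n = 3 each here and below). The range within BSA was wider than that within rhMG53 for 29 of the 40 tested members, beside 44.5% of all tested genes. BSA replicate 3 was at least 1.35-fold above the mean of BSA replicates 1 and 2 for 7 genes, the hypoxia-inducible Ankrd37, Pfkfb3, Egln3, Slc16a3 and Bnip3, the aldolase gene Aldoc and the glycogen gene Phkg1. The hypoxia response targets Car9, Ndrg1, P4ha1 and P4ha2 were 1.09-fold to 1.12-fold higher there. A further ordering was picked out after the values were seen, and its share over all genes was not computed. For Egln3, Ankrd37, Pfkfb3, Slc16a3, Slc2a1, Hk2, Vegfa and P4ha2 all 3 rhMG53 libraries lay above BSA replicates 1 and 2 and below BSA replicate 3. Results that rest on BSA replicate 3 are therefore also given without it.

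Total counts were 17898768 to 22738745 per BSA library and 17374151 to 19827476 per rhMG53 library. The labels speak of biological replicates without saying which animal or culture gave each library, and the p-values measure only the spread over these libraries, which may be technical in part. Markers of satellite cells and of differentiating muscle were present, with Pax7 at 10.03 ± 0.990 CPM (BSA) against 8.44 ± 1.30 CPM (rhMG53) and embryonic myosin Myh3 at 22392 ± 465 CPM (BSA) against 20527 ± 2556 CPM (rhMG53), and mRNAs of both states were thus in the same cultures. Calcr, a marker of quiescent satellite cells, was below 0.5 CPM. The 8 leukocyte markers summed to 7.04 to 8.18 CPM with BSA and 7.42 to 11.9 CPM with rhMG53, with Ptprc, Adgre1, Csf1r and Cd3e below 0.5 CPM, and the 7 endothelial markers to 6.76 to 7.26 and 5.35 to 6.90 CPM, with Pecam1, Cdh5, Kdr, Tek and Cldn5 below 0.5 CPM. The 8 fibroblast and fibro-adipogenic markers summed to 468 to 545 CPM with BSA and 505 to 548 CPM with rhMG53, with Lum below 0.5 CPM. Col3a1 made up most of that sum, at 438 ± 36.2 CPM (BSA) against 430 ± 21.8 CPM (rhMG53). The 6 mural cell markers summed to 245 to 291 and 236 to 284 CPM, with Rgs5 below 0.5 CPM and Kcnj8 at 0. Most of the mural sum came from Abcc9, at 133 ± 17.8 and 122 ± 18.6 CPM, and Pdgfrb, at 82.1 ± 8.96 and 85.3 ± 4.60 CPM. The part of these cells in the results was not tested. In bulk RNA, fewer cells of a type and less RNA per cell cannot be told apart.

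Together the 41 genes took 1.82, 1.96 and 2.03% of counts in BSA 1 to 3 against 1.88, 2.01 and 1.98% in rhMG53 replicates 1 to 3. Those shares were lowest in BSA replicate 1 and highest in BSA replicate 3, so both ends of the range lay in the control group and the treated libraries fell between them. The 18 glycolytic genes from hexokinase to pyruvate kinase, regulators included, made up 1.54 ± 0.0805% of BSA counts and 1.55 ± 0.0567% of rhMG53 counts. The 5 glycogen genes made up 0.183 ± 0.00723% and 0.179 ± 0.00415%, and the 7 hypoxia response targets 0.0463 ± 0.00489% and 0.0488 ± 0.00164%.

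Levels can be compared between genes only per length, for which mean CPM was divided by the length in kilobases of the longest protein-coding transcript of each gene. On this scale Aldoa led with 3316 CPM per kilobase, followed by the pyruvate kinase gene Pkm at 1169.8, the muscle enolase gene Eno3 at 1022, the lactate dehydrogenase gene Ldha at 642 and the triose phosphate isomerase gene Tpi1 at 508. Gapdh stood at 406 from its own row alone. The row of its pseudogene Gapdh-ps15 held 41.9% to 43.7% of the reads of the pair, so the place of Gapdh in this order is uncertain. The phosphofructokinase gene Pfkm, which carries the committed step of the pathway, stood at 354, and the glycogen phosphorylase gene Pygm at 436 CPM per kilobase. Entry points were far lower, with the hexokinase gene Hk1 at 46.9 and the glucose transporter gene Slc2a1 at 9.65. Hypoxia response targets ranged from 50.6 for the mitophagy receptor gene Bnip3 to 0.482 CPM per kilobase for the carbonic anhydrase gene Car9. The top rank depended on the length used: with the median transcript length Vegfa stood at 97.8 and Bnip3 at 71.8, against 32.4 for Vegfa with the longest. At the bottom were the neuronal-type glucose transporter gene Slc2a3 at 0.204 and the liver-type bifunctional enzyme gene Pfkfb1 at 0.189, the gene that failed the filter, with 8, 4 and 6 reads with BSA and 3, 10 and 9 reads with rhMG53.

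**Figure D1:**
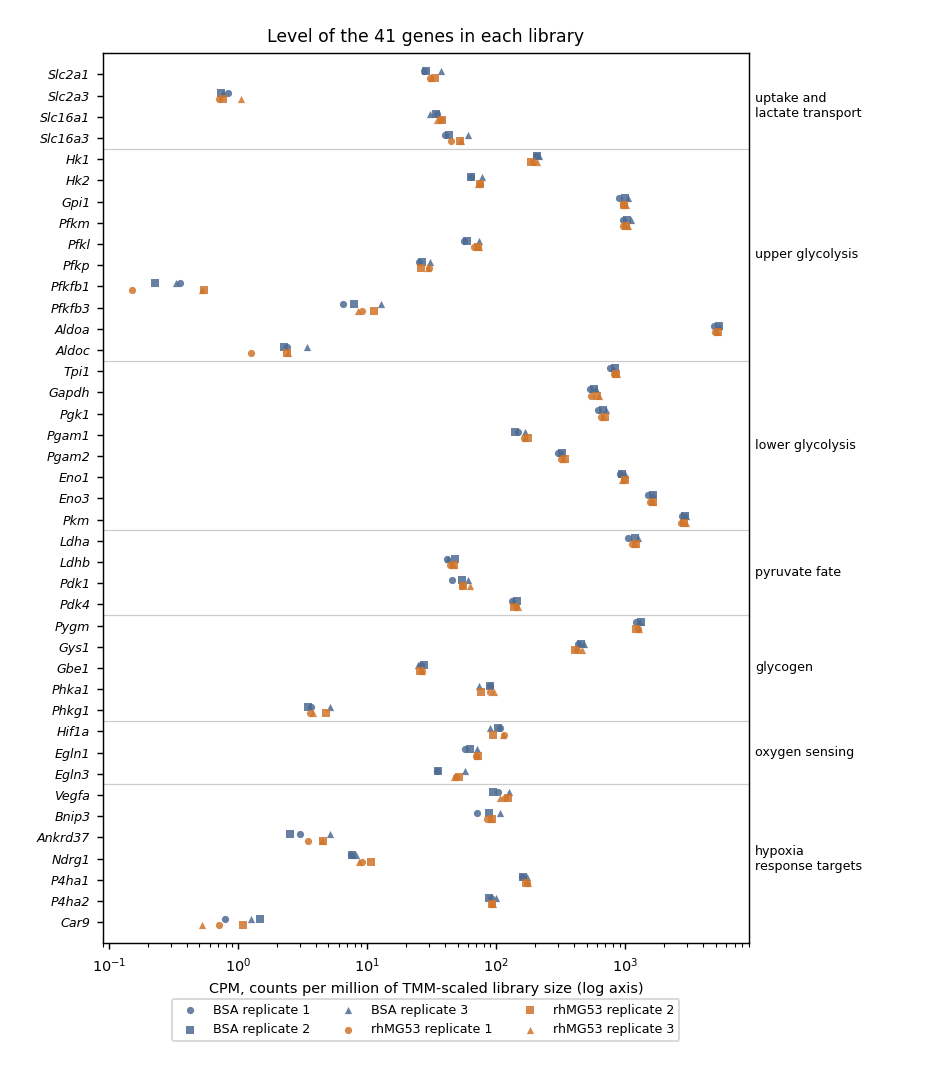
Level of each of the 41 genes in each of the 6 libraries, in CPM on a log axis, with genes grouped by role. Points are single libraries, blue for BSA and orange for rhMG53, with a marker shape for each replicate; Aldoa lies between 4882 and 5343 CPM, Pfkfb1 below 1 CPM, and the points of the 2 groups overlap for 38 of the 40 tested genes.

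Muscle-type isoforms predominated among phosphofructokinases, phosphoglycerate mutases, enolases and aldolases. Among the phosphofructokinase genes, compared per length, Pfkm held 93.8 ± 0.404% with BSA and 93.1 ± 0.144% with rhMG53, the liver-type gene Pfkl 4.44 ± 0.346% and 5.03 ± 0.0472%, and the platelet-type gene Pfkp 1.74 ± 0.0585% and 1.83 ± 0.184%. The muscle phosphoglycerate mutase gene Pgam2 held 81.5 ± 1.32% with BSA and 80.4 ± 0.251% with rhMG53 of the pair with the widely expressed Pgam1. Of the pair of enolase genes Eno3 and Eno1, Eno3 held 68.7 ± 0.618% with BSA and 68.2 ± 1.16% with rhMG53. This share leaves out Eno2, at 13.4 ± 0.713 CPM (BSA) against 11.7 ± 1.85 CPM (rhMG53). It also leaves out Eno1b, a near copy of Eno1, at 95.4 ± 3.03 CPM (BSA) against 100.2 ± 1.31 CPM (rhMG53). Aldoa made up 99.97 ± 0.00608% with BSA and 99.98 ± 0.00682% with rhMG53 of the pair with the brain-type gene Aldoc.

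The other pairs ranged from near equal to strongly one-sided. Hexokinase 2, the insulin-responsive hexokinase of mature muscle, held 20.4 ± 1.36% with BSA and 22.8 ± 1.30% with rhMG53 of the pair Hk2 and Hk1. Ldhb, the heart-type lactate dehydrogenase gene, held 5.03 ± 0.450% with BSA and 5.15 ± 0.0232% with rhMG53 of its pair with Ldha, and Slc2a3 2.07 ± 0.376% with BSA and 2.12 ± 0.480% with rhMG53 of its pair with Slc2a1. Pyruvate dehydrogenase kinases restrain the entry of pyruvate into mitochondria. Of the pair Pdk4 and Pdk1, the starvation-responsive Pdk4 held 79.3 ± 2.36% with BSA and 78.7 ± 0.834% with rhMG53 against the hypoxia-responsive Pdk1. This share leaves out Pdk2, at 92.2 ± 8.21 CPM (BSA) against 89.8 ± 2.87 CPM (rhMG53). It also leaves out Pdk3, at 19.4 ± 1.71 CPM (BSA) against 18.2 ± 1.02 CPM (rhMG53). The lactate exporter gene Slc16a3 held 59.04 ± 6.68% with BSA and 58.2 ± 3.03% with rhMG53 against Slc16a1. P4ha2 and P4ha1, and Egln3 and Egln1, were each near equal per length, with the share of the former gene at 50.2 ± 0.706% with BSA and 48.9 ± 0.293% with rhMG53 and at 46.7 ± 4.56% with BSA and 48.5 ± 1.002% with rhMG53. With the median in place of the longest transcript length, P4ha1 stood 1.39-fold above P4ha2, and the ratio of Slc16a3 to Slc16a1 went from 1.42 to 2.58.

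A ratio of counts of a pair within a library does not depend on how libraries are scaled, and none of the 11 ratios passed an exact 2-sided permutation test of rhMG53 against BSA. Exact p was 0.1 to 1, where 0.1 is the smallest that 3 against 3 allows, and the adjusted p over the 11 pairs was 0.55 to 1. In 2 of the 11 pairs the groups did not overlap, which by itself gives the smallest exact p of 0.1. Among single genes, the groups did not overlap for 10.8% of all tested. The log2 ratio of Pfkm to Pfkl was 4.09, 4.11 and 3.90 with BSA and 3.84, 3.82 and 3.84 with rhMG53, a difference of -0.20 (exact p = 0.1), and that of P4ha2 to P4ha1 was -0.80, -0.87 and -0.81 with BSA and -0.90, -0.88 and -0.91 with rhMG53, a difference of -0.074 (exact p = 0.1). All 3 treated libraries had slightly less muscle-type phosphofructokinase mRNA relative to the liver type than any BSA library, which is a description, as no ratio passed. For Hk2 to Hk1 the log2 ratio was -1.66, -1.68 and -1.46 with BSA and -1.37, -1.30 and -1.51 with rhMG53 (difference 0.21, exact p = 0.2), where rhMG53 replicate 3 lay below BSA replicate 3. The differences of the remaining 8 pairs lay between -0.10 for Pgam2 to Pgam1 and 0.42 for Aldoa to Aldoc, the latter resting on 25 to 62 reads of Aldoc per library.

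**Figure D2:**
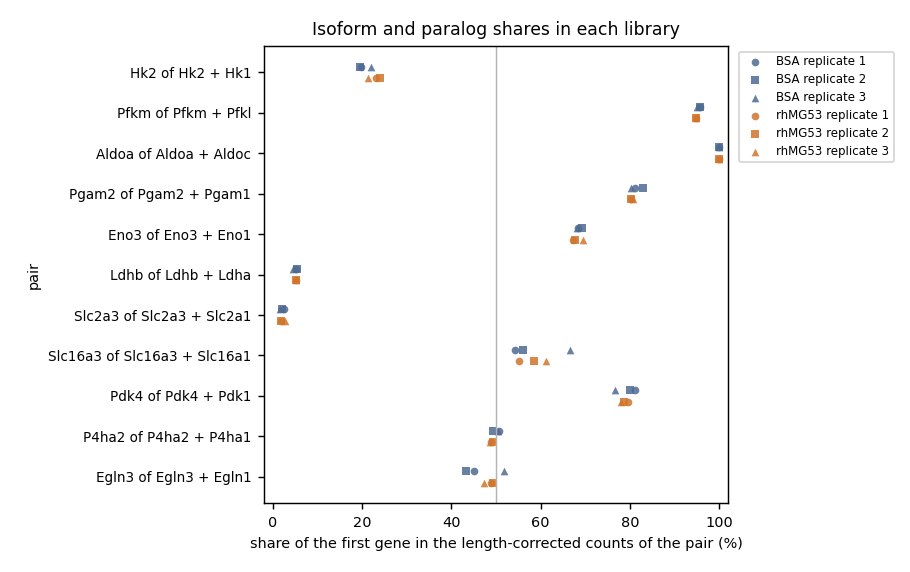
Share of the gene named first in the length-corrected counts of each pair, in percent, for each of the 6 libraries. Points are single libraries, blue for BSA and orange for rhMG53, with a marker shape for each replicate; most pairs keep nearly the same position in all libraries, and the widest range is in the BSA libraries for Slc16a3 and Egln3.

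In edgeR's quasi-likelihood test 0 of the 40 tested members passed an adjusted p of 0.05, against 3 of all 13769 genes (0.0218%), and the adjusted p of the members was 0.946 to 0.9998. The count at an unadjusted p under 0.05 was 1 of 40 (Ndrg1, higher, beside 2.98% of all tested genes higher and 2.22% lower, 5.2% in all). DESeq2 and limma voom also called 0 members, beside 5 and 3 of all 13769 genes. They gave 0 and 2 members at an unadjusted p under 0.05, beside 368 and 711 of all 13769 genes. Of the 40 members 30 had a log2 fold change above 0, beside 50.5% of all genes, with a median of 0.055 beside 0.0014 over all genes. That median was 0.0031, with 21 members above 0, without BSA replicate 1, and 0.073, with 32 above 0, without BSA replicate 3. Groups did not overlap for 2 members, both higher with rhMG53, beside 5.94% of all genes higher and 4.83% lower (10.8% in all).

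The intervals show how small the differences were. For 29 members the 95% interval of the fold change lay within 1.25-fold in either direction, beside 52.0% of all tested genes. For 36 it lay within 1.5-fold, beside 79.0%. These shares over all genes are not matched for level. Among the 26 members of at least 50 CPM, the interval bounds reached from 0.844-fold for Bnip3 to 1.29-fold for Pfkl. The widest intervals were those of Car9, Slc2a3, Aldoc, Ankrd37 and Pfkfb3, all below 10 CPM on average. Egln3, at 627 to 1035 reads per library, had an interval of 0.913-fold to 1.47-fold, wider than that of any member of at least 50 CPM, and its BSA libraries spanned 1.64-fold.

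**Figure D3:**
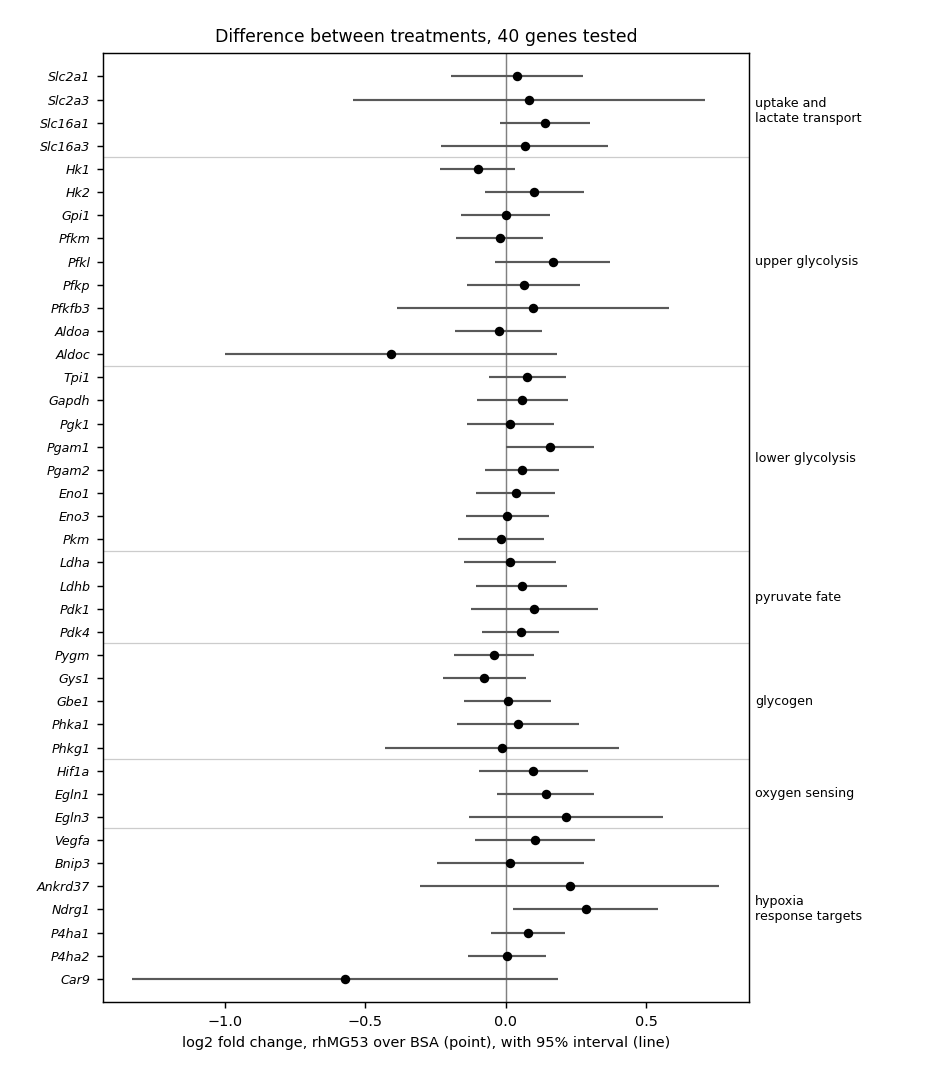
Log2 fold change of rhMG53 over BSA for each of the 40 tested genes (point) with its 95% interval from edgeR (line), grouped by role. The intervals of 39 genes include 0; that of Ndrg1, 0.027 to 0.54, does not, and it did not pass after adjustment over all genes.

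None of the glucose and lactate transporters passed the test. Slc16a1 (MCT1; gene ID 20501, chromosome 3, 104638664 to 104658462 in mm10), which moves lactate in both directions, was at 34.4, 34.3 and 30.7 CPM (BSA replicates 1 to 3) against 37.3, 37.8 and 34.7 CPM (rhMG53 replicates 1 to 3). All rhMG53 values lay above all BSA values, by a narrow margin (log2 difference 0.14 with SE 0.072, interval -0.019 to 0.30, unadjusted p = 0.0782). Slc16a3 (MCT4; gene ID 80879, chromosome 11, 120948484 to 120959000), the lactate exporter of glycolytic muscle, was at 40.1, 42.9 and 60.3 CPM (BSA replicates 1 to 3) against 44.7, 52.04 and 53.4 CPM (rhMG53 replicates 1 to 3), with BSA replicate 3 above every other library (log2 difference 0.068 with SE 0.13, interval -0.23 to 0.37). Slc2a1 (GLUT1), the basal glucose transporter, stood at 27.7, 28.4 and 37.01 CPM (BSA) against 30.7, 33.7 and 31.2 CPM (rhMG53), again highest in BSA replicate 3 (log2 difference 0.041 with SE 0.11, interval -0.19 to 0.28). Slc2a3 (GLUT3) was near the limit of detection, with 19, 13 and 14 reads with BSA and 14, 14 and 18 reads with rhMG53 (0.083, SE 0.28, where, as below, a bare value with its SE is a log2 fold change).

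In upper glycolysis, from glucose phosphorylation to the splitting of fructose bisphosphate, 4 of 9 tested members had a log2 fold change above 0 and 5 below, with a median of -0.00032. Hk1 was at 203, 205 and 215 CPM (BSA replicates 1 to 3) against 192, 184 and 205 CPM (rhMG53 replicates 1 to 3). Its lowest values were in rhMG53 replicates 1 and 2, while rhMG53 replicate 3 lay within the BSA range (log2 difference -0.10 with SE 0.061, interval -0.23 to 0.035). Hk2 was at 64.1, 64.1 and 77.8 CPM (BSA) against 74.4, 74.6 and 71.9 CPM (rhMG53) (log2 difference 0.10 with SE 0.080, interval -0.074 to 0.28); BSA replicate 3 was the highest library and BSA replicates 1 and 2 the lowest. Pfkm was at 962, 1023 and 1094 CPM (BSA) against 961, 1016 and 1055 CPM (rhMG53) (log2 difference -0.022 with SE 0.070, interval -0.18 to 0.13).

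Pfkl (liver-type phosphofructokinase; gene ID 18641, chromosome 10, 77986947 to 78009807) was at 56.4, 59.4 and 73.4 CPM (BSA replicates 1 to 3) against 66.9, 71.8 and 73.5 CPM (rhMG53 replicates 1 to 3). BSA replicates 1 and 2 were lowest, but BSA replicate 3 reached the treated level (log2 difference 0.17 with SE 0.093, interval -0.039 to 0.37, unadjusted p = 0.102). Aldoa (gene ID 11674, chromosome 7, 126795234 to 126800994) was at 4882, 5320.2 and 5343 CPM (BSA) against 4943, 5203 and 5131 CPM (rhMG53) and differed by under 1.10-fold between the highest and the lowest library of a group (log2 difference -0.025 with SE 0.071, interval -0.18 to 0.13). Aldoc was low in all libraries, at 2.39, 2.26 and 3.41 CPM (BSA) against 1.26, 2.40 and 2.43 CPM (rhMG53), with the lowest value in rhMG53 replicate 1 and the highest in BSA replicate 3 (log2 difference -0.41 with SE 0.27, interval -1.0 to 0.18). The difference for Aldoc was -0.15, SE 0.24 without rhMG53 replicate 1 and -0.21, SE 0.28 without BSA replicate 3. For Gpi1, the isomerase gene, the difference was -0.00032, SE 0.073 (log2), and for Pfkp it was 0.064, SE 0.091.

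Pfkfb3 (gene ID 170768, chromosome 2, 11471430 to 11554071) makes fructose 2,6-bisphosphate, the activator of phosphofructokinase, and is a known hypoxia-inducible gene. It was at 6.45, 7.91 and 12.8 CPM (BSA replicates 1 to 3) against 9.14, 11.2 and 8.46 CPM (rhMG53 replicates 1 to 3). BSA replicates 1 and 3 were the lowest and the highest of all libraries, and the treated libraries lay between them (log2 difference 0.10 with SE 0.22, interval -0.39 to 0.58). Pfkfb1 failed the filter and was not tested, at 0.354, 0.226 and 0.330 CPM (BSA replicates 1 to 3) against 0.151, 0.545 and 0.522 CPM (rhMG53 replicates 1 to 3).

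In lower glycolysis, which yields ATP and pyruvate, 7 of 8 members had a log2 fold change above 0, all of them 0.16 or less. Pgam1 (gene ID 18648, chromosome 19, 41911871 to 41918665) was at 147, 139.7 and 165 CPM (BSA replicates 1 to 3) against 163, 176 and 166 CPM (rhMG53 replicates 1 to 3). BSA replicate 3 lay inside the range of the treated libraries (log2 difference 0.16 with SE 0.071, interval -0.00044 to 0.31, unadjusted p = 0.0505). Its muscle paralog Pgam2 (gene ID 56012, chromosome 11, 5801637 to 5803796) was at 299, 321 and 321 CPM (BSA) against 314, 338 and 328 CPM (rhMG53) (log2 difference 0.059 with SE 0.060, interval -0.073 to 0.19), and its groups overlapped.

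The enolase genes did not separate the groups either. Eno3 (gene ID 13808, chromosome 11, 70653125 to 70662513) was at 1502, 1646 and 1639 CPM (BSA) against 1538, 1619.8 and 1647 CPM (rhMG53) (log2 difference 0.0054 with SE 0.067, interval -0.14 to 0.15) and Eno1 at 901, 942 and 988 CPM (BSA) against 967, 999 and 936 CPM (rhMG53) (log2 difference 0.036 with SE 0.064, interval -0.10 to 0.18). A near copy of Eno1, Eno1b, had a row of its own with 8.93% to 9.60% of the reads of the pair, and the log2 ratio of group means was 0.039 with both rows summed. Tpi1 (0.077, SE 0.062), the phosphoglycerate kinase gene Pgk1 (0.016, SE 0.070) and Pkm (-0.017, SE 0.069) had log2 fold changes within 0.08 of 0. Counts per gene do not separate the M1 and M2 splice forms of Pkm.

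Gapdh (gene ID 14433, chromosome 6, 125161852 to 125166467), often used as a reference gene, was at 530.0, 573 and 588 CPM (BSA replicates 1 to 3) against 536, 604 and 623 CPM (rhMG53 replicates 1 to 3), lowest in BSA replicate 1 and highest in rhMG53 replicate 3 (log2 difference 0.060 with SE 0.073, interval -0.10 to 0.22). The pseudogene Gapdh-ps15 had a row of its own with 7654 to 8769 reads per library, 41.9% to 43.7% of the reads of the pair. Reads of near-identical copies can be split between rows, so the Gapdh level here is uncertain. With both rows summed the level was 987 ± 62.3 CPM (BSA) against 1031 ± 68.2 CPM (rhMG53), a log2 ratio of 0.063. Within rhMG53 the highest library had 1.16-fold the Gapdh CPM of the lowest.

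The genes that set the fate of pyruvate had log2 fold changes of 0.016 to 0.10. Ldha was at 1051, 1187 and 1239.6 CPM (BSA replicates 1 to 3) against 1119.7, 1213 and 1183 CPM (rhMG53 replicates 1 to 3), lowest in BSA replicate 1 and highest in BSA replicate 3 (log2 difference 0.016 with SE 0.075, interval -0.15 to 0.18). Ldhb was at 41.8, 48.1 and 42.1 CPM (BSA) against 43.9, 47.4 and 45.96 CPM (rhMG53), with BSA replicate 2 highest (log2 difference 0.057 with SE 0.073, interval -0.11 to 0.22). Pdk1 was at 45.2, 54.1 and 60.8 CPM (BSA) against 53.97, 55.5 and 62.3 CPM (rhMG53), and its lowest library was again BSA replicate 1 (log2 difference 0.10 with SE 0.10, interval -0.12 to 0.33). Pdk4 was at 131, 145 and 134 CPM (BSA) against 141, 137 and 148 CPM (rhMG53), with the group ranges interleaved (log2 difference 0.054 with SE 0.062, interval -0.083 to 0.19).

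Of the glycogen genes 2 had a log2 fold change above 0 and 3 below, with a median of -0.013. The glycogen synthase gene Gys1 was at 432, 449 and 477 CPM (BSA replicates 1 to 3) against 421, 409 and 459 CPM (rhMG53 replicates 1 to 3), with the lowest values in rhMG53 replicates 1 and 2 (log2 difference -0.076 with SE 0.067, interval -0.22 to 0.072). Pygm, which releases glucose 1-phosphate from glycogen, was at 1269.5 ± 63.4 CPM (BSA) against 1234 ± 31.1 CPM (rhMG53) (log2 difference -0.041 with SE 0.065, interval -0.18 to 0.10). The branching enzyme gene Gbe1 (0.0066, SE 0.071) lay between 24.9 and 27.5 CPM in all 6 libraries. Phosphorylase kinase activates Pygm, and its regulatory subunit gene Phka1 was at 89.95, 89.8 and 73.3 CPM (BSA) against 89.8, 76.02 and 95.1 CPM (rhMG53), lowest in BSA replicate 3 and next lowest in rhMG53 replicate 2 (0.043, SE 0.10). The muscle catalytic subunit gene Phkg1 was at 4.10 ± 0.886 CPM (BSA) against 4.05 ± 0.653 CPM (rhMG53) (-0.013, SE 0.19).

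The promoters of 6 of the 7 members that were at least 1.35-fold higher in BSA replicate 3 than in the mean of the other BSA libraries, a limit chosen after their values were seen, are shown because these genes carry the library pattern described further on. Aldoc is left out because both of its windows overlap annotated exons, as does the other window of Pfkfb3, and each of these holds 1 match. To these were added Pgam1 and Pgam2 as a pair of a widely expressed and a muscle-type isoform. Each is the stretch from 250 to 21 bases before the RefSeq start (RefSeq, GRCm38.p6, the assembly of mm10), 5′ to 3′ on the strand of the gene. Capitals mark ACGTG or GCGTG, the core of the hypoxia response element, on either strand (CACGT and CACGC when read on the other strand), with overlapping matches joined, as in CACGTG. Phkg1 and Pgam2 have no match. The printed windows of Pfkfb3, Slc16a3 and Ankrd37 lie inside the annotated span of the gene, downstream of its outermost start. That of Phkg1 overlaps the span of its gene in part.
Pfkfb3, chr2:11502111-11502340, minus strand, 1 of its 2 starts: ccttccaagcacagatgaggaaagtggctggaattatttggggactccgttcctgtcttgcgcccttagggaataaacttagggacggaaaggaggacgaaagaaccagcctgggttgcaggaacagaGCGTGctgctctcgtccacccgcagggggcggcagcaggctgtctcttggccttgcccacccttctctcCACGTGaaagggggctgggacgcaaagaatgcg
Egln3, chr12:54203895-54204124, minus strand: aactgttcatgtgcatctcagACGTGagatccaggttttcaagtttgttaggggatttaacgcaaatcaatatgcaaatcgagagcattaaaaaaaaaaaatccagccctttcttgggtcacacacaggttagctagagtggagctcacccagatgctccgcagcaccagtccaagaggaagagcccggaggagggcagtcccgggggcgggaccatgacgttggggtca
Slc16a3, chr11:120948817-120949046, plus strand: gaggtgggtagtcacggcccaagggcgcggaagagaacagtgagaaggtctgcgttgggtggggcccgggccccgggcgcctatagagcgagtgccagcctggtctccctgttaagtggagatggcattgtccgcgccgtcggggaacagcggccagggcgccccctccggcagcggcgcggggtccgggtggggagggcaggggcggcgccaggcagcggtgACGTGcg
Bnip3, chr7:138909527-138909756, minus strand: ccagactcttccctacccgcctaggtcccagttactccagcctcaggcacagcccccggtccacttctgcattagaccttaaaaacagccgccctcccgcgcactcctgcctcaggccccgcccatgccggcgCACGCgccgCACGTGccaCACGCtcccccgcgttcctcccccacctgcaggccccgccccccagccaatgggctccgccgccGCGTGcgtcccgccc
Ankrd37, chr8:45999871-46000100, minus strand: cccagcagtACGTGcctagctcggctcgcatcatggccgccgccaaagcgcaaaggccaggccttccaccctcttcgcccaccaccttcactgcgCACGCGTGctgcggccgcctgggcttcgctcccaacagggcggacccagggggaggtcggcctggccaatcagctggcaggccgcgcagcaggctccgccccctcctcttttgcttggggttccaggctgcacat
Phkg1, chr5:129879109-129879338, minus strand: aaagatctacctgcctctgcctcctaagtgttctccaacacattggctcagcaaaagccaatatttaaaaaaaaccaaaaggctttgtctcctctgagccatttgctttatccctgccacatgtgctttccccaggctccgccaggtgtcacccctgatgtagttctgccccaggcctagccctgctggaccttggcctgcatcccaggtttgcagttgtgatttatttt
Pgam1, chr19:41911621-41911850, plus strand: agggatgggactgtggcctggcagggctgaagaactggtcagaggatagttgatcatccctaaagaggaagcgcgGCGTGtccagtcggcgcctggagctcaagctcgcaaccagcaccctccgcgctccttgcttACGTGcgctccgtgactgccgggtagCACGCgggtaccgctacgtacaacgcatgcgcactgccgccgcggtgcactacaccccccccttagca
Pgam2, chr11:5803817-5804046, minus strand: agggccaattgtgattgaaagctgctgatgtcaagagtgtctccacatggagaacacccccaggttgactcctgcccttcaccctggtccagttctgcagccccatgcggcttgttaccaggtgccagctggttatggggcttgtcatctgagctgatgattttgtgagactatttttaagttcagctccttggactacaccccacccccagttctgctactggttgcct

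Of the 39 members with a sequence in the RefSeq table (all but Slc2a3 and Ndrg1), 32 (82.1%) held the motif in at least 1 such window, against 57.1% of the 10638 tested genes with a sequence. By window, 40 of 56 member windows (71.4%) held it, against 51.1% of the windows of tested genes and 36% of all windows in the table. Member windows had a median of 10 CG pairs, the windows of tested genes 13. The motif was in all sequenced members among the transporters, the genes of pyruvate fate and the oxygen sensors, in 5 of 6 hypoxia response targets, and in 2 of 5 glycogen genes, Pygm and Phka1. The counts for members and for all genes include windows that overlap annotated exons. Some members count only through such windows. For Vegfa 218 of the 230 bases of that window lie in exons, and its other window has 0 matches. For Pfkfb1 all 230 bases of the window with a match do. A match describes letters in a window and is not a measured binding site.

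The oxygen sensors had log2 fold changes of 0.099 to 0.21, with a median of 0.14. Hif1a (gene ID 15251, chromosome 12, 73901324 to 73947554) was at 107, 102 and 89.5 CPM (BSA replicates 1 to 3) against 114, 94.2 and 112 CPM (rhMG53 replicates 1 to 3). Its lowest values were in BSA replicate 3 and rhMG53 replicate 2 (log2 difference 0.10 with SE 0.089, interval -0.10 to 0.29). Egln1 (PHD2; gene ID 112405, chromosome 8, 124908587 to 124949254), the main hydroxylase of HIF1A, was at 57.5, 62.7 and 71.2 CPM (BSA replicates 1 to 3) against 69.1, 71.7 and 70.3 CPM (rhMG53 replicates 1 to 3). The 3 treated libraries lay close together, between 69.1 and 71.7 CPM, and BSA replicate 3 fell among them (log2 difference 0.14 with SE 0.079, interval -0.030 to 0.32, unadjusted p = 0.0971).

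Egln3 (PHD3; gene ID 112407, chromosome 12, 54178981 to 54203874) is itself induced by HIF and so works as a feedback gene. It was at 34.8, 35.4 and 56.9 CPM (BSA replicates 1 to 3) against 48.8, 51.5 and 46.8 CPM (rhMG53 replicates 1 to 3). The BSA group held both the lowest pair of libraries and the highest library, 1.64-fold apart, and the treated libraries stood in between (log2 difference 0.21 with SE 0.16, interval -0.13 to 0.56, unadjusted p = 0.200). Without BSA replicate 3 the log2 fold change was 0.48, SE 0.076, with an edgeR adjusted p of 0.139. That library was singled out on the values of these same genes, so the fit without it is a description and no test. The log2 fold change of Egln3 was 0.088, SE 0.16 without BSA replicate 1 and 0.10, SE 0.17 without BSA replicate 2.

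Among the hypoxia response targets, 6 of 7 had a log2 fold change above 0, with a median of 0.079. Ndrg1 (gene ID 17988, chromosome 15, 66929318 to 66969641), a stress-responsive gene linked to growth arrest and differentiation, was at 7.47, 7.63 and 8.19 CPM (BSA replicates 1 to 3) against 9.04, 10.6 and 8.69 CPM (rhMG53 replicates 1 to 3). All rhMG53 libraries were above all BSA libraries (log2 difference 0.29 with SE 0.12, interval 0.027 to 0.54), a 1.22-fold difference that had an unadjusted p of 0.0332 and an edgeR adjusted p of 0.946. The counts behind it were 135 to 195 reads per library. Over the 6 fits that each left out a library its log2 fold change was 0.19 to 0.34.

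Vegfa, the main angiogenic growth factor gene, was at 103, 94.9 and 125 CPM (BSA replicates 1 to 3) against 116, 124 and 107 CPM (rhMG53 replicates 1 to 3). Its highest libraries were BSA replicate 3 and rhMG53 replicate 2 (log2 difference 0.10 with SE 0.10, interval -0.11 to 0.32). Bnip3 (gene ID 12176, chromosome 7, 138890836 to 138909506), a receptor for mitophagy, was at 71.1, 87.2 and 107 CPM (BSA replicates 1 to 3) against 84.7, 92.3 and 90.8 CPM (rhMG53 replicates 1 to 3); the BSA libraries spanned 1.50-fold and the treated libraries 1.09-fold (log2 difference 0.017 with SE 0.12, interval -0.25 to 0.28). Ankrd37 (gene ID 654824, chromosome 8, 45996908 to 46000414), a small ankyrin repeat gene used as a marker of HIF activity, was at 3.01, 2.54 and 5.11 CPM (BSA replicates 1 to 3) against 3.48, 4.52 and 4.46 CPM (rhMG53 replicates 1 to 3). These levels rest on 45 to 93 reads (log2 difference 0.23 with SE 0.24, interval -0.30 to 0.76).

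The collagen prolyl 4-hydroxylase genes were steady. P4ha1 was at 159, 159 and 174 CPM (BSA replicates 1 to 3) against 172, 171 and 177 CPM (rhMG53 replicates 1 to 3), where BSA replicate 3 lay inside the treated range (log2 difference 0.079 with SE 0.059, interval -0.051 to 0.21). P4ha2 was at 91.4, 87.2 and 99.4 CPM (BSA) against 91.9, 92.9 and 94.02 CPM (rhMG53) (log2 difference 0.0046 with SE 0.064, interval -0.14 to 0.14). Car9, a cell-surface carbonic anhydrase that is among the most oxygen-sensitive HIF targets, was barely detected, at 0.796, 1.47 and 1.26 CPM (BSA replicates 1 to 3) against 0.707, 1.09 and 0.522 CPM (rhMG53 replicates 1 to 3). With 9 to 26 reads per library its interval was the widest of the set on the log2 scale (log2 difference -0.57 with SE 0.34, interval -1.33 to 0.19).

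Across libraries these genes showed a pattern that cut across the groups. BSA replicate 3 was the highest of the 6 libraries for 20 of the 40 tested members, beside 17.1% of all tested genes, and BSA replicate 1 the lowest for 24, beside 16.9% of all genes. For the 7 hypoxia response targets the median deviation from the mean log2 CPM of all 6 libraries was -0.19, -0.089 and 0.17 in BSA 1 to 3 against -0.012, 0.16 and 0.025 in rhMG53 replicates 1 to 3. For all 40 members it was -0.11, -0.012 and 0.10 in BSA 1 to 3 against -0.027, 0.062 and 0.047 in rhMG53 replicates 1 to 3, while for all genes tested it stayed within 0.01 of 0 in every library. The range within BSA was wider than that within rhMG53 for 29 of 40 members, beside 44.5% of all genes.

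Set against the mean of BSA replicates 1 and 2, BSA replicate 3 was 1.84-fold higher for Ankrd37, 1.78-fold for Pfkfb3, 1.62-fold for Egln3, 1.45-fold for Slc16a3, 1.35-fold for Bnip3, 1.32-fold for Slc2a1, 1.27-fold for Pfkl and 1.26-fold for Vegfa. Ankrd37 averaged 3.86 CPM over the 6 libraries, and of the other genes below 5 CPM, Aldoc (1.47-fold) and Phkg1 (1.43-fold) were also higher in BSA replicate 3. Of the 35 members of at least 5 CPM, 7 were past 1.25-fold higher in this library, beside 2.87% of all genes at that level, and 0 were past 1.25-fold lower, beside 5.4%. Hif1a mRNA went the other way, 1.17-fold lower, as did Phka1, 1.23-fold lower. These are single libraries, so the differences are a description with no test. The abundant enzyme genes moved little, with 1.05-fold for Aldoa and 1.06-fold for Pkm.

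**Figure D4:**
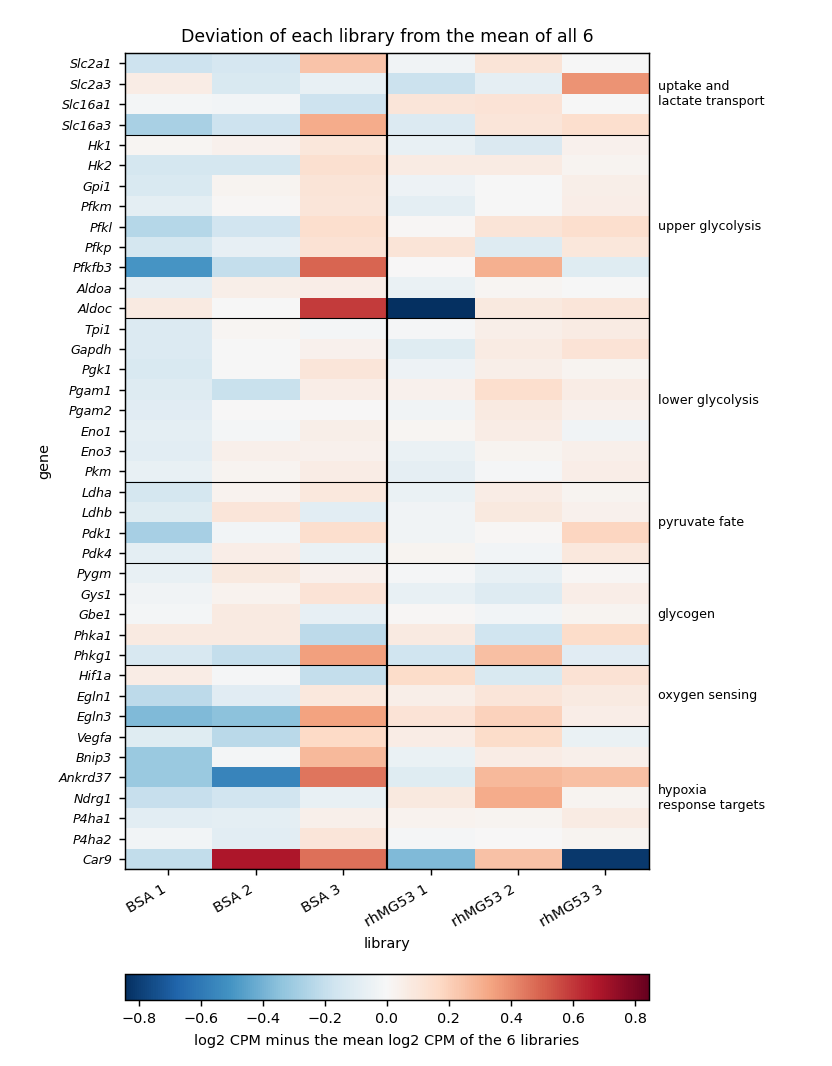
Deviation of each library (columns, BSA left of the line and rhMG53 right of it) from the mean log2 CPM of the 6 libraries, for each of the 40 tested genes (rows, by role); red is above the mean and blue below. The darkest red cells of BSA 3 include Aldoc, Pfkfb3, Ankrd37 and Car9, and BSA 1 is the lowest library for 24 of the genes.

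BSA replicate 3 was singled out on the values of these same genes, for many of which it was the highest BSA library. Leaving it out raises the fold changes of such genes in advance, so the fit without it is a description and no test of a response. Leaving out BSA replicate 3 gave 11 members at an unadjusted p under 0.05, all with a log2 fold change above 0, beside 6.08% of all genes in that fit, and 0 past the adjusted threshold (0.0144% of all genes). They were Egln3, Pfkl (0.29, SE 0.074), Pgam1 (0.23, SE 0.070), Egln1 (0.23, SE 0.071), Slc16a3 (0.27, SE 0.090), Hk2 (0.20, SE 0.067), Ankrd37 (0.57, SE 0.20), Vegfa (0.22, SE 0.081), Pfkfb3 (0.43, SE 0.16), Ndrg1 (0.32, SE 0.13) and Slc2a1 (0.18, SE 0.080), with edgeR adjusted p from 0.139 to 0.789. In the same fit Hif1a stood at 0.027, SE 0.088. Leaving out BSA replicate 1 instead gave 1 member at an unadjusted p under 0.05, Car9 (-0.81, SE 0.35), beside 4.11% of all genes, and 0 past the adjusted threshold (0.0144% of all genes). Of the 11 members above, 3 turned negative in that fit, Pfkfb3 at -0.11, SE 0.20, Slc16a3 at -0.044, SE 0.13 and Slc2a1 at -0.036, SE 0.11, and the others stood between 0.055 for Hk2 and 0.26 for Ndrg1.

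Other genes of the same pathways, taken from 3 lists of the wider pathways, did not pass either, with 0 called in each direction in edgeR, DESeq2 and limma voom. Of 38 tested genes of wider glucose and pyruvate metabolism, 15 had a log2 fold change above 0 and 23 below (median -0.037), and 3 had an unadjusted p under 0.05, beside 5.2% of all genes. The insulin-responsive glucose transporter gene Slc2a4 (GLUT4) was at 65.7, 69.4 and 71.7 CPM (BSA replicates 1 to 3) against 62.96, 63.6 and 60.6 CPM (rhMG53 replicates 1 to 3). Its rhMG53 values all lay below the BSA values (log2 difference -0.14 with SE 0.061, interval -0.28 to -0.0080, edgeR adjusted p = 0.950). The ADP-dependent glucokinase gene Adpgk (0.27, SE 0.10), the glycerol phosphate dehydrogenase gene Gpd1 (0.21, SE 0.085) and the transporter gene Slc2a8 (0.21, SE 0.12) were the others with the smallest p, and in each all rhMG53 values were above all BSA values.

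Of 24 tested genes of wider glycogen metabolism, 12 were above 0 and 12 below (median -0.0080), with 2 at an unadjusted p under 0.05, beside the same 5.2% of all genes. Prkag3, the muscle-specific gamma subunit of the energy sensor AMPK that is known for its effect on muscle glycogen, was at 231, 249 and 249.8 CPM (BSA replicates 1 to 3) against 210.1, 209 and 199 CPM (rhMG53 replicates 1 to 3). The treated libraries all lay below the BSA libraries (log2 difference -0.24 with SE 0.059, interval -0.37 to -0.11), and the unadjusted p of 0.00203 became 0.935 after adjustment over all genes in edgeR. The liver-type phosphorylase kinase subunit gene Phka2 (-0.15, SE 0.068) and the liver phosphorylase gene Pygl (0.37, SE 0.24) followed.

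Of 40 tested genes of the wider hypoxia response, 26 were above 0 and 14 below (median 0.034), with 6 at an unadjusted p under 0.05, again beside 5.2%. Groups did not overlap for 6 genes higher and 1 lower with rhMG53, beside 5.94% and 4.83% of all genes. Lox, a collagen crosslinking enzyme gene, was at 276, 268 and 292 CPM (BSA replicates 1 to 3) against 368, 295 and 312 CPM (rhMG53 replicates 1 to 3). Every treated library was above every BSA library (log2 difference 0.22 with SE 0.082, interval 0.043 to 0.40, edgeR adjusted p = 0.940). The transferrin receptor gene Tfrc was at 426 ± 23.5 CPM (BSA) against 483 ± 36.4 CPM (rhMG53) (0.18, SE 0.072). Wsb1, a ubiquitin ligase adaptor gene, was lower at 71.8 ± 4.004 CPM (BSA) against 64.6 ± 1.53 CPM (rhMG53) (-0.15, SE 0.063).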

How the data were processed

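Poly(A)-selected, directional RNA libraries, 6 in all, were counted per gene. Per the submitters' processing notes, reads were handled with STAR and featureCounts on mm10, with edgeR also listed and no version named. Which annotation, strand setting and rule for multi-mapping reads were used is not given in the sources here, and overlapping genes and near-identical copies can share reads. The authors deposited raw whole-number counts for 27179 NCBI gene IDs, of which RefSeq (GRCm38.p6) named 25275 and GENCODE another 18. No column was left unused.

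Genes were kept with filterByExpr (minimum count 10, minimum total 15), scaled with TMM factors and tested with edgeR 4.0.16 (R 4.3.3), quasi-likelihood F test, treatment as the only term, 2-sided, p-values adjusted by Benjamini-Hochberg across the 13769 genes, called at 0.05. SEs were taken as the log2 fold change over the square root of F, with 95% intervals from the t distribution on the fit's total degrees of freedom. In the report a log2 difference is this log2 fold change. DESeq2 1.42.0, limma voom (limma 3.58.1), other scalings and filters, robust moderation, the replicate number as a term and leaving out each library were alternatives. Transcript lengths are of GENCODE M21 basic protein-coding transcripts. The fit was tested on simulated data.

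The members, the lists and the pairs were chosen with earlier results of these data known. Values in each library are given for members whose groups do not overlap, the 10 of smallest p, the isoform pairs and the member below the filter, and for some others; of each wider list the 4 genes of smallest p are named, except that 2 of these genes are not reported here. Sums over genes use plain library totals.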

Additional observations from a re-analysis of the deposited data

How the results depend on the processing

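No member of the set and no gene of the wider lists passed under any alternative run: RLE, upper quartile or library size scaling, no filter beyond a total of 1, a mean of at least 5 CPM, DESeq2, limma voom, robust moderation, the replicate number as a term, or leaving out each library. The lowest adjusted p of a member was 0.139, for Egln3 without BSA replicate 3, a library singled out on the values of these same genes. The count over all genes, 3, was 6 with no filter, 5 with DESeq2 and 0 with the replicate block, and ranged from 0 (without BSA replicate 2) to 4 when a library was left out. With the replicate block 1 member, Pfkl, had an unadjusted p under 0.05, in place of Ndrg1, beside 609 of all 13769 genes. With a library left out the number of such members was 0 (without BSA replicate 2, beside 518 of 14001 genes) to 11 (without BSA replicate 3, beside 846 of 13910 genes). Correlations between libraries showed no consistent pairing by replicate number: that of same-numbered deviations from the group means was 0.19, -0.13 and -0.15, and not every library correlated best with its own number. With 3 libraries a group these values cannot settle whether same-numbered libraries share an animal or culture.

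The median log2 fold change of the members was 0.048 to 0.070 over the scalings, filters and tools and 0.0031 to 0.073 with a library left out. The median of all genes was -0.0062 to 0.016 over the scalings. Small differences changed sign. With upper quartile factors Eno3 was -0.0022, Gbe1 -0.00071 and P4ha2 -0.0036; P4ha2 was -0.00056 with RLE factors and -0.00055 with DESeq2. With library size alone Gpi1 was 0.014 and Phkg1 0.0023, and Gpi1 was 0.0021 with limma voom and 0.0024 with the replicate block. With each library left out in turn, the log2 fold change ranged over -0.036 to 0.18 for Slc2a1, -0.10 to 0.20 for Slc2a3, -0.044 to 0.27 for Slc16a3, -0.061 to 0.054 for Gpi1, -0.065 to 0.026 for Pfkm, -0.11 to 0.43 for Pfkfb3, 0.088 to 0.48 for Egln3 (sign kept), -0.56 to -0.15 for Aldoc (sign kept), -0.038 to 0.072 for Pgk1, -0.035 to 0.033 for Eno3, -0.052 to 0.015 for Pkm, -0.049 to 0.066 for Ldha, -0.0050 to 0.21 for Pdk1, -0.026 to 0.046 for Gbe1, -0.048 to 0.13 for Phka1, -0.15 to 0.17 for Phkg1, -0.12 to 0.18 for Bnip3 and -0.037 to 0.057 for P4ha2. The difference in the log2 ratio ranged over -0.040 to 0.087 for Ldhb to Ldha, -0.15 to 0.16 for Slc2a3 to Slc2a1, -0.20 to 0.18 for Slc16a3 to Slc16a1 and -0.17 to 0.031 for Pdk4 to Pdk1. The cause was not tested. The summed share of the 41 genes differed by 0.0209 percentage points, and by -0.0354 to 0.0669 with a library left out. At this depth the genes below 5 CPM cannot show differences of less than about their interval, and 3 libraries a group limit the exact tests to p = 0.1. Summing copies and using median transcript lengths were chosen after seeing the data.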
